A study of Mus musculus with 15 samples.

Results

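The Slc38 family consists of membrane carriers that move glutamine, alanine and other small neutral amino acids, most of them together with sodium. Described here are 7 of its genes in mouse kidney, Slc38a1, Slc38a2, Slc38a3, Slc38a4, Slc38a7, Slc38a9 and Slc38a10, which were found by symbol among the 23284 genes of the deposited table. The kidneys came from wild-type (WT) mice and were labelled D-ala (D-alanine), L-ala (L-alanine) or vehicle, all with a time of 2 h. Each group held 5 RNA sequencing libraries. D-alanine and L-alanine are mirror images of each other, and the study concerns the effect of D-alanine. The sources used here give neither doses nor routes, and neither the make-up of the vehicle nor the age, sex or strain of the mice. Whether the samples of a group came from separate animals is not in the labels, so p-values measure only the spread between these samples, which may be technical.

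Alanine is itself cargo of several of these carriers. Slc38a1, Slc38a2 and Slc38a4 encode the system A carriers of the plasma membrane, which import alanine, serine and glutamine with sodium. In cultured mammalian cells Slc38a2 is the adaptive member of this system, and its transcript and protein rise when amino acids are short or the medium is hypertonic. Slc38a3 encodes the system N carrier SNAT3, which moves glutamine, asparagine and histidine with sodium in exchange for protons. In rodent kidney SNAT3 sits on the basolateral side of proximal tubule cells, where glutamine taken from the blood feeds ammonia production, and it increases during metabolic acidosis. Slc38a7 and Slc38a9 encode carriers of the lysosomal membrane, known from human and mouse cells for releasing glutamine and asparagine and for reporting arginine to the growth kinase complex mTORC1. The protein of Slc38a10 has been placed at the Golgi and other inner membranes, and its transport role is less settled.

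Values are FPKM, which are fragment counts divided by transcript length and scaled per library by the authors, so levels can be compared between genes. The scaling was not to the total of each library. The deposited count values, to which the FPKM of each gene were proportional, summed to 9033022 in vehicle replicate 4 and 10596691 in L-ala replicate 4. Factors that would even out the median gene between libraries ran only from 1.001 to 1.005. Group values are given as mean ± SD over 5 libraries. Fold changes are on the log2(FPKM + 1) scale, on which low genes show less than their full change, and were tested with limma across 11781 genes that had at least 1 FPKM in 5 or more libraries. A gene was called higher or lower at a Benjamini-Hochberg adjusted p under 0.05. Of the 7 Slc38 genes, 5 were tested, and each of these reached 1 FPKM in all 15 libraries. Slc38a1 reached it in 0 libraries and Slc38a4 in 3, so neither entered the test.

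The libraries held 9.89 to 10.5 M recovered reads in the D-ala group, 8.76 to 10.9 M in the L-ala group and 7.58 to 10.2 M in the vehicle group. After each gene was centred, the correlations of L-ala replicate 5 with the remaining 4 libraries of its group averaged -0.118, so it stood apart from them. The same measure ran from 0.071 to 0.288 in the other 14 libraries. The label of kidney matched the data, since the 10 proximal tubule markers examined were all expressed and summed to at least 78200 FPKM in every library, while 5 adrenal cortex markers summed to no more than 0.984 FPKM.

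The 7 genes lie on 5 chromosomes of the GRCm38 assembly, in the GENCODE M21 annotation. The system A genes stand side by side on the minus strand of chromosome 15, with Slc38a1 at chr15:96571418-96642913, Slc38a2 at chr15:96687392-96699730 and Slc38a4 at chr15:96994820-97055956. They span 484.5 kb together, and 0 annotated protein-coding genes lie between Slc38a1 and Slc38a2 (44.5 kb apart) or between Slc38a2 and Slc38a4 (295.1 kb apart). Slc38a3 is at chr9:107650634-107669530 on the minus strand, Slc38a7 at chr8:95835920-95853539 on the minus strand, Slc38a9 at chr13:112660751-112738749 on the plus strand and Slc38a10 at chr11:120103960-120151346 on the minus strand. Exons of Slc38a9 share 182 bases with the antisense gene Gm47827, and exons of Slc38a10 share 367 bases with Gm11769 on the opposite strand. The libraries were made with a stranded kit, but the sources used here do not say whether the counting used strand. How the reads of these short stretches were assigned is therefore not known. Gm47827 and Gm11769 are not among the genes of the deposited table.

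The sequence before the start of Slc38a2 is shown because this gene was the member that was lower after both treatments. It holds the 250 bases upstream of the RefSeq start site, at chr15:96699729-96699978 of GRCm38.p6, written 5′ to 3′ along the minus strand. Capitals mark a GC box read on the opposite strand (CCGCCC, the reverse complement of GGGCGG, 35 to 30 bases before the start) and a core of the cAMP response element (TGACG, 27 to 23 bases before the start).
Slc38a2 upstream: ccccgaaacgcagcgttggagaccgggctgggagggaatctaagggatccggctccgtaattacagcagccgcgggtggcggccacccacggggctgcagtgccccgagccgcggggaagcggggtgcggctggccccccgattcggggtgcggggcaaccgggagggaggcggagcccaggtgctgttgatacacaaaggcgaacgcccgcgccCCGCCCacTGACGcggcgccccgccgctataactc
The window is 72.0% G and C, against a median of 52.4% and a 90th percentile of 69.2% over 32851 RefSeq windows of the same length. Both strands were searched, and the GC box GGGCGG was found in 32.7% of all windows and the core TGACG in 17.8%. The other motifs searched were the full element TGACGTCA (in 1.55% of all windows, overlapping the core), the amino acid response type TGATGNAA (3.45%), CCAAT (33.9%), the E-box CACGTG (6.02%) and TATAAA (12.4%). None of these 5 motifs stood in this window. The bases after the start, introns included, were not searched, so this does not show that the gene lacks them. Such matches describe the sequence and are not evidence of a factor at work.

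In every group Slc38a10 had the highest mean, followed by Slc38a3, Slc38a2, Slc38a7, Slc38a9, Slc38a4 and Slc38a1. The spread between neighbours in this order differed by group. In D-ala kidneys the libraries of Slc38a10 and Slc38a3 overlapped, at 40.1 ± 2.98 and 37.8 ± 5.85 FPKM. In L-ala kidneys those genes stood clear of each other, at 39.1 ± 3.24 and 19.9 ± 2.22 FPKM. In vehicle kidneys Slc38a10 stood clear at 43 ± 1.85 FPKM, while Slc38a3 and Slc38a2 overlapped at 27.3 ± 3.58 and 19.1 ± 4.11 FPKM. In both treated groups Slc38a3 stood clear of Slc38a2. Slc38a4 and Slc38a1 overlapped in all 3 groups, and the remaining neighbours did not overlap in any group.

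**Figure D1:**
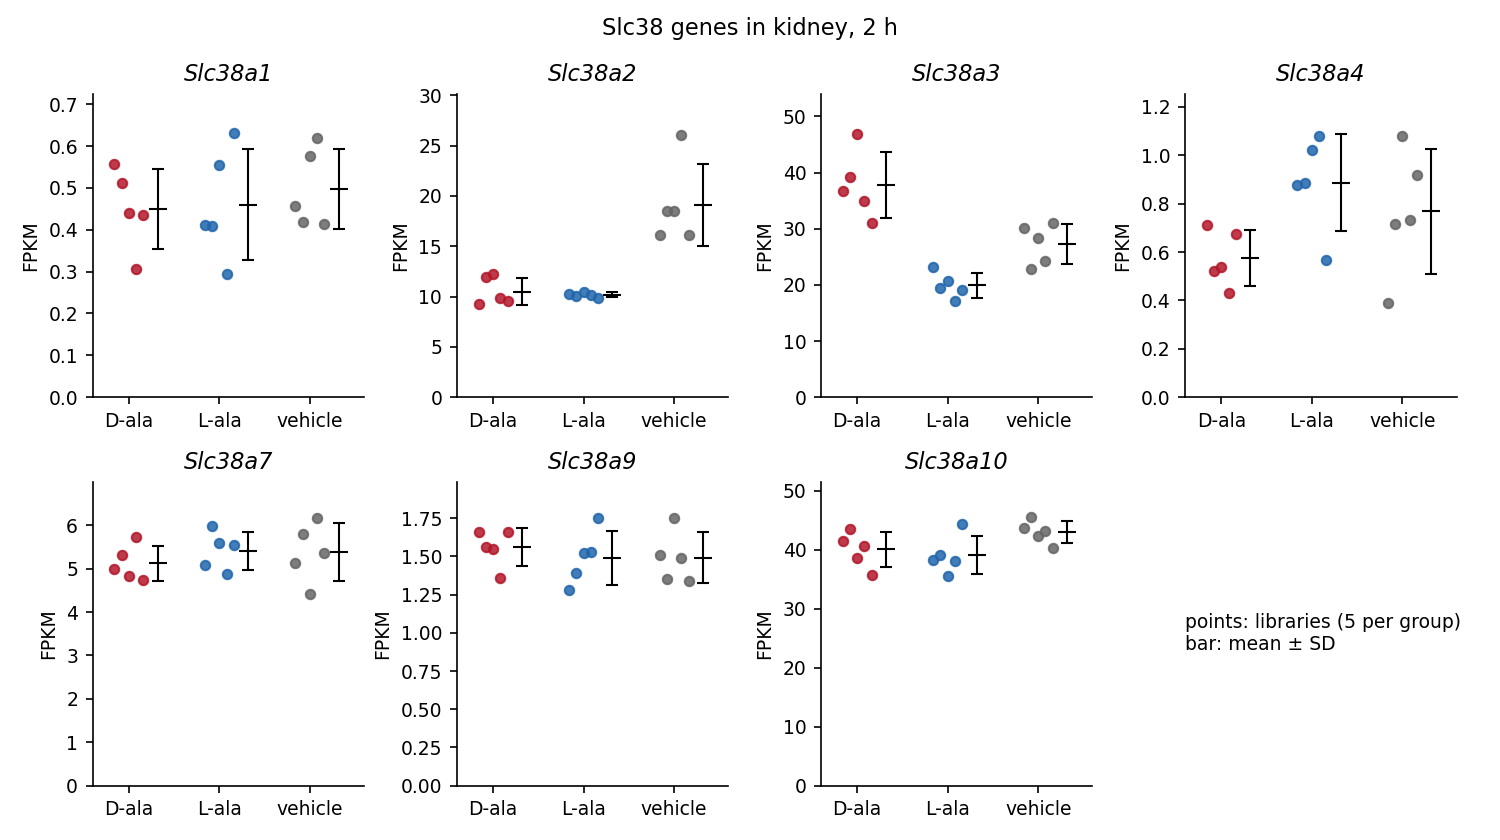
Level of each of the 7 Slc38 genes in FPKM (vertical axes, starting at 0 and scaled per gene) for D-ala, L-ala and vehicle kidneys at 2 h. Points are single libraries, 5 per group, and bars are the mean ± SD. Slc38a2 in all D-ala and L-ala libraries lay below every vehicle library, Slc38a3 was highest in D-ala kidneys, and the groups of the other 5 genes overlapped.

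Among the system A carriers, Slc38a2 was the abundant one and was lower after both forms of alanine. Its 5 libraries read 9.30, 11.9, 12.2, 9.83 and 9.54 FPKM in D-ala kidneys, 10.3, 10.1, 10.5, 10.2 and 9.86 FPKM in L-ala kidneys, and 16.1, 18.5, 18.5, 26.1 and 16.1 FPKM in vehicle kidneys. The treated libraries all stayed below the lowest vehicle library, the L-ala libraries lay close together, and the vehicle group was spread upward by its replicate 4. With D-ala the mean was 10.5 ± 1.37 FPKM, against 19.1 ± 4.11 FPKM with vehicle, a log2 fold change of -0.78 (SE 0.11, 95% interval -1.01 to -0.56, limma adjusted p = 2.51e-04) and a fold of 0.581. With L-ala it was 10.2 ± 0.234 FPKM, against the same vehicle libraries, a log2 fold change of -0.82 (SE 0.11, 95% interval -1.05 to -0.59, limma adjusted p = 8.22e-04) and a fold of 0.566. Ordered by p-value among the 11781 genes tested, Slc38a2 was at place 73 for D-ala against vehicle and at place 12 for L-ala against vehicle. The vehicle samples are shared by these comparisons, so their errors are not independent. Without vehicle replicate 4 the changes were -0.67 with D-ala (adjusted p = 1.52e-04) and -0.71 with L-ala (adjusted p = 7.78e-04).

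Slc38a2 did not separate the mirror forms. D-ala against L-ala gave a log2 difference of 0.04 with a 95% interval of -0.19 to 0.27 (limma adjusted p = 0.839), and the libraries overlapped. The interval bounds the difference at about these sizes and does not show that the treatments acted alike on the gene.

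Slc38a1 and Slc38a4, the other system A genes and neighbours of Slc38a2 on chromosome 15, were low. Slc38a1, a carrier best known from neurons and placenta, averaged 0.45 ± 0.0948 FPKM with D-ala, 0.46 ± 0.132 FPKM with L-ala and 0.497 ± 0.0952 FPKM with vehicle. Slc38a4, a carrier best known from liver and placenta, averaged 0.575 ± 0.116 FPKM with D-ala, 0.886 ± 0.2 FPKM with L-ala and 0.768 ± 0.26 FPKM with vehicle. These values rest on 18.2 to 49.1 recovered reads per library for Slc38a1 and on 12.2 to 43.9 for Slc38a4, and the groups overlapped for both genes. The largest difference between groups was that of Slc38a4 between D-ala and L-ala, at -0.26 on the log2(FPKM + 1) scale, -0.54 with a pseudocount of 0.1 and -0.59 on the scaled counts. When the filter on low values was left out, so that 18067 genes were tested, its limma adjusted p was 0.146, and that of Slc38a4 for D-ala against vehicle was 0.436. Whether depth set these results was not tested.

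Slc38a3, the system N carrier, went opposite ways after the mirror forms. Its libraries read 36.7, 39.2, 46.8, 35 and 31.1 FPKM in D-ala kidneys, 23.1, 19.5, 20.6, 17.1 and 19.1 FPKM in L-ala kidneys, and 30.1, 22.9, 28.4, 24.2 and 31 FPKM in vehicle kidneys. The D-ala libraries were all above the other groups, the lowest of them only just above the highest vehicle library, while the highest L-ala library passed the lowest vehicle library. With D-ala the mean was 37.8 ± 5.85 FPKM, against 27.3 ± 3.58 FPKM with vehicle, a log2 fold change of 0.45 (SE 0.11, 95% interval 0.23 to 0.68, limma adjusted p = 0.012). With L-ala it was 19.9 ± 2.22 FPKM, against the same vehicle libraries, a log2 fold change of -0.43 (SE 0.11, 95% interval -0.66 to -0.21, limma adjusted p = 0.0213). The direct comparison of D-ala with L-ala, 37.8 against 19.9 FPKM, gave a log2 fold change of 0.89 (SE 0.11, 95% interval 0.66 to 1.11, limma adjusted p = 1.27e-04), a fold of 1.85, and place 24 by p-value among all genes tested. Without the doses, the mirror form and a difference in dose cannot be told apart here.

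The fall of Slc38a3 with L-ala was the least firm of the calls. Without L-ala replicate 4 it was -0.38 with a limma adjusted p of 0.0625, and without the 3 libraries of lowest depth (vehicle replicate 1 and L-ala replicates 4 and 5) it was -0.32 with an adjusted p of 0.126. Without L-ala replicate 5, the library that stood apart, it was -0.42 (adjusted p = 0.0183), and the difference between D-ala and L-ala was 0.87 (adjusted p = 2.76e-04).

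**Figure D2:**
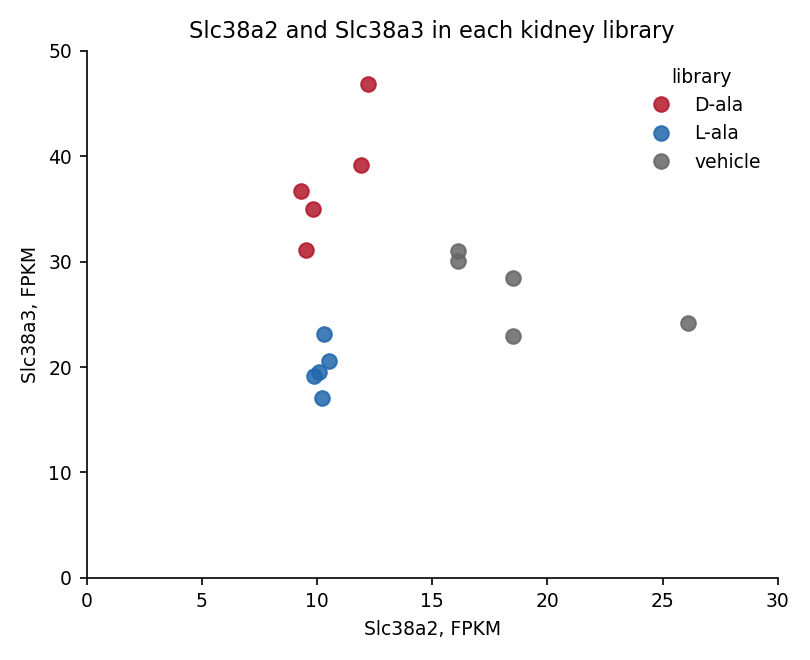
Slc38a2 (horizontal axis, FPKM) against Slc38a3 (vertical axis, FPKM) in each of the 15 kidney libraries, coloured by group, with both axes starting at 0. D-ala and L-ala libraries lie in the same low range of Slc38a2, 9.30 to 12.2 FPKM, and differ in Slc38a3, whose D-ala libraries start at 31.1 FPKM and whose L-ala libraries end at 23.1 FPKM.

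The same values give the balance between the system N and system A carriers, as a description. The ratio of Slc38a3 to Slc38a2 in FPKM was 3.58 ± 0.309 in D-ala kidneys, 1.95 ± 0.206 in L-ala kidneys and 1.5 ± 0.422 in vehicle kidneys. It ran from 3.26 to 3.94 with D-ala, from 1.67 to 2.25 with L-ala and from 0.93 to 1.92 with vehicle, where replicate 4 alone fell below 1. Summed over the 7 genes, Slc38 transcripts came to 96.1 ± 8.3 FPKM with D-ala, 77.4 ± 3.36 FPKM with L-ala and 97.5 ± 2.95 FPKM with vehicle. Slc38a3 held 39.1 ± 3.09% of that sum with D-ala, 25.7 ± 2.55% with L-ala and 28 ± 4.0% with vehicle. Slc38a2 held 11 ± 0.811% with D-ala, 13.2 ± 0.793% with L-ala and 19.5 ± 3.58% with vehicle.

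The genes of the inner membranes passed no test. Slc38a7, the lysosomal glutamine and asparagine carrier, averaged 5.12 ± 0.402 FPKM with D-ala, 5.41 ± 0.442 FPKM with L-ala and 5.38 ± 0.667 FPKM with vehicle. Its 95% intervals on the log2 scale were -0.22 to 0.11 for D-ala against vehicle, -0.15 to 0.18 for L-ala against vehicle, and -0.23 to 0.1 when D-ala was set against L-ala. Slc38a9, the arginine sensor, averaged 1.56 ± 0.123, 1.49 ± 0.175 and 1.49 ± 0.166 FPKM with D-ala, L-ala and vehicle, and its intervals were -0.11 to 0.2, -0.15 to 0.16 and -0.12 to 0.19 for the same 3 comparisons. On this scale the changes of Slc38a9, a low gene, are understated. With a pseudocount of 0.1 its change for D-ala against vehicle was 0.07 with an SE of 0.12.

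Slc38a10 read 41.5, 43.6, 38.6, 40.7 and 35.8 FPKM in D-ala kidneys, 38.3, 39.1, 35.5, 38.1 and 44.4 FPKM in L-ala kidneys, and 43.8, 45.5, 42.3, 43.2 and 40.4 FPKM in vehicle kidneys. The groups overlapped, and in the L-ala group replicate 5 alone was above the lowest vehicle library. The log2 fold changes were -0.10 with D-ala against vehicle (limma adjusted p = 0.319) and -0.14 with L-ala against vehicle (adjusted p = 0.152, 95% interval -0.27 to -0.0045). Without L-ala replicate 5 the change with L-ala was -0.18 and passed the threshold (adjusted p = 0.0349).

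**Figure D3:**
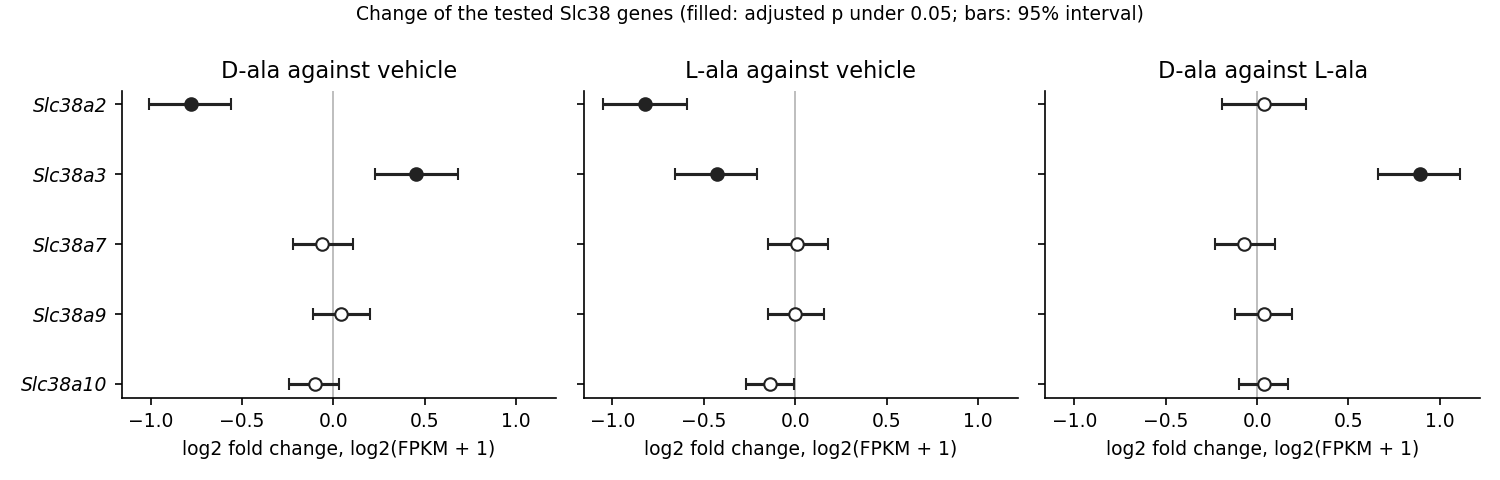
Log2 fold change of the 5 tested Slc38 genes on the log2(FPKM + 1) scale (horizontal axes), with panels for each treatment against vehicle and for D-ala over L-ala. Circles are estimates, bars are 95% intervals, and filled circles passed a limma adjusted p of 0.05. Slc38a2 lies left of 0 in both comparisons with vehicle and at 0.04 between the treatments, and Slc38a3 lies on opposite sides of 0 in the comparisons with vehicle.

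Counted over the 5 tested genes, D-ala against vehicle gave 1 higher, 1 lower and 3 that did not pass, beside 6.53% higher, 4.92% lower and 11.5% in either direction over all 11781 genes. The libraries of 1 gene were all above and those of 1 all below vehicle, which held for 6.12% and 4.76% of all genes and for 10.9% in either direction. L-ala against vehicle gave 0 higher, 2 lower and 3 that did not pass, beside 6.48% higher, 4.53% lower and 11% in either direction over all genes. The libraries of 0 genes were all above and those of 1 all below vehicle, beside 4.01% and 3.23% of all genes and 7.24% in either direction. Between D-ala and L-ala 1 was higher, 0 lower and 4 did not pass, beside 7.01% higher, 6.66% lower and 13.7% in either direction over all genes. The libraries of 1 gene were all above and those of 0 all below L-ala, beside 5.08% and 4.02% of all genes and 9.11% in either direction. At an unadjusted p under 0.05, 0 were higher and 3 lower for L-ala against vehicle, beside 17% and 13.5% of all genes, and 1 was higher and 0 lower for D-ala against L-ala, beside 14.4% and 16.4%. For D-ala against vehicle 13.9% of all genes were higher and 12.6% lower at that threshold, which is the background of the further counts at an unadjusted p. The shares of 11.5%, 11% and 13.7% called in either direction are likewise the background of the calls in the marker and pathway lists below. The median log2 fold change of the 5 was -0.06, -0.14 and 0.04 in these comparisons, beside 0.0, 0.01 and -0.01 over all genes tested. With so few genes, these counts describe single carriers and not the family.

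The other 4 genes of the family in the table complete the picture. Of these 1 was tested, Slc38a6, which averaged 4.9 ± 0.499 FPKM with D-ala, 4.32 ± 0.362 FPKM with L-ala and 4.0 ± 0.47 FPKM with vehicle, and its log2 fold change for D-ala against vehicle, 0.24 with a 95% interval of 0.07 to 0.41, missed the threshold (limma adjusted p = 0.063). Slc38a5, a system N carrier, had no more than 0.056 FPKM in any library, Slc38a8 no more than 0.042 and Slc38a11 no more than 0.264.

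Bulk tissue mixes many cell types, so fewer cells of a type and less RNA per cell cannot be told apart, and the markers of other cells that moved with these genes are given here. The 10 markers of proximal tubule, where SNAT3 is known, summed to 78200 to 105000 FPKM with D-ala, 108000 to 144000 FPKM with L-ala and 86400 to 105000 FPKM with vehicle. Of the 10, 3 were higher and 0 lower for D-ala against vehicle, 5 higher and 0 lower for L-ala against vehicle, and 1 higher and 2 lower when D-ala was set against L-ala. Kap, the androgen-regulated protein of proximal tubule, made up at least 92.2% of the sum in every library. Without it the other 9 markers summed to 6260 ± 302 FPKM with D-ala, 6080 ± 221 FPKM with L-ala and 5470 ± 213 FPKM with vehicle, and D-ala and L-ala libraries overlapped. The 5 markers of the S3 segment gave 0 calls in any of the 3 comparisons with limma, and summed to 565 to 692 FPKM with D-ala, 524 to 803 FPKM with L-ala and 535 to 748 FPKM with vehicle. At an unadjusted p under 0.05, 1 of them was higher for D-ala and 1 lower for L-ala against vehicle.

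Some markers of endothelium and macrophages were lower in the comparisons in which Slc38a2 was lower. The 7 endothelial markers summed to 66.8 to 99.1 FPKM with D-ala, 58.1 to 132 FPKM with L-ala and 92.7 to 158 FPKM with vehicle, with 0 higher and 2 lower for D-ala and 0 higher and 4 lower for L-ala against vehicle. The 7 macrophage markers summed to 109 to 170 FPKM with D-ala, 125 to 211 FPKM with L-ala and 150 to 262 FPKM with vehicle, with 3 of them lower with D-ala and 1 lower with L-ala than with vehicle. Markers also moved for D-ala against L-ala, where Slc38a2 was not called. There 1 endothelial marker was higher and 0 lower, and 0 macrophage markers were higher and 2 lower. Neutrophil markers, of which Mmp8 and Ngp were at 0 in all vehicle libraries, summed to 2.39 to 11.4 FPKM with D-ala, 13.2 to 35.2 FPKM with L-ala and 0.641 to 7.72 FPKM with vehicle, and both that were tested were higher with L-ala than with either other group. Red blood cell markers summed to 34.9 to 456 FPKM with D-ala, 262 to 744 FPKM with L-ala and 16.2 to 255 FPKM with vehicle. Of their 4 tested markers, 0 were called for L-ala against vehicle with limma, 4 were higher at an unadjusted p under 0.05, and their median log2 fold change was 2.21. For D-ala against L-ala 1 of the 4 was called lower, Hbb-b1 at -2.87 (limma adjusted p = 0.038), and all 4 were lower at an unadjusted p under 0.05. Hbb-b1 averaged 0.0022 ± 0.0011 FPKM with D-ala and 9.82 ± 8.17 FPKM with L-ala, and the libraries overlapped. Hbb-b2 averaged 41.1 ± 41.9 and 108 ± 41.1 FPKM in these groups and did not pass (adjusted p = 0.154). The part of these cells in the Slc38 results was not tested.

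Cultured cells raise Slc38a2 through the transcription factor ATF4 when amino acids run short, so 26 genes of that response were set beside it. Of the 21 tested, 6 were higher and 0 lower with D-ala and 6 higher and 0 lower with L-ala, each against vehicle, with medians of 0.16 and 0.21 on the log2 scale. At an unadjusted p under 0.05, 7 genes were higher and 1 lower in each comparison. Called in either direction were 28.6% of the 21 in each, beside 11.5% and 11% of all genes. Atf4 itself averaged 160 ± 24.2 FPKM with D-ala, 104 ± 7.37 FPKM with L-ala and 82.7 ± 14.9 FPKM with vehicle, and its change with D-ala against vehicle was 0.95 (limma adjusted p = 8.83e-05). Gdf15, a stress-induced cytokine, averaged 50.5 ± 28.7 FPKM with D-ala, 44.8 ± 16.8 FPKM with L-ala and 7.32 ± 1.01 FPKM with vehicle, with log2 fold changes of 2.49 (adjusted p = 2.07e-04) and 2.40 (adjusted p = 0.00127). Ddit3, a transcription factor of stressed cells, averaged 67.4 ± 15.4 FPKM with D-ala and 32.4 ± 8.19 FPKM with vehicle (1.04, adjusted p = 0.00251). It also passed with L-ala, at 56.5 ± 12.5 FPKM (0.79 against vehicle, limma adjusted p = 0.0195). With L-ala the factor gene Cebpb averaged 99.9 ± 29 FPKM, against 20.7 ± 12.5 FPKM with vehicle (2.35, adjusted p = 0.00912). Cebpb also passed with D-ala, at 80.6 ± 41.1 FPKM (1.93 against vehicle, limma adjusted p = 0.0114). Between D-ala and L-ala neither Ddit3 nor Cebpb passed (limma adjusted p = 0.377 and 0.529). Ddit4, an inhibitor of mTORC1, averaged 145 ± 50.7 FPKM with L-ala and 32.5 ± 28.4 FPKM with vehicle (2.51, adjusted p = 0.0146). Atf4 with L-ala against vehicle did not pass (0.35, adjusted p = 0.0614). In both treated groups Slc38a2 was lower than in vehicle kidneys while Gdf15 was higher. The response as a whole was not tested, and 15 of the 21 genes did not pass in each comparison with vehicle. Among these was Asns, at -0.12 with D-ala and -0.12 with L-ala (limma adjusted p = 0.48 and 0.44). Shmt2 passed in both, at 0.30 and 0.21 (adjusted p = 0.00402 and 0.0326). Between D-ala and L-ala, Atf4 was higher by 0.60 (adjusted p = 0.0047), and the enhancer-binding protein gene Cebpg was lower, at 9.42 ± 0.779 FPKM with D-ala and 11.5 ± 0.582 FPKM with L-ala (log2 fold change -0.26, adjusted p = 0.0134).

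Slc38a3 supplies glutamine for ammonia production, and 14 of 15 listed genes of that route and its acid excretion were tested. For D-ala against vehicle 3 were higher and 0 lower, also at an unadjusted p under 0.05. Slc25a10, the mitochondrial dicarboxylate carrier, averaged 203 ± 22.1 FPKM with D-ala and 162 ± 12.5 FPKM with vehicle (log2 fold change 0.32, limma adjusted p = 0.00924). Pck1, which makes phosphoenolpyruvate from the carbon that ammonia production leaves behind, averaged 4140 ± 553 FPKM with D-ala and 2440 ± 749 FPKM with vehicle (log2 fold change 0.82, limma adjusted p = 0.00989). Glud1, the glutamate dehydrogenase that releases ammonia, averaged 233 ± 22.4 FPKM with D-ala and 189 ± 23.7 FPKM with vehicle (0.30, adjusted p = 0.0458).

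For L-ala against vehicle 2 genes of this list were higher and 1 lower. Glul, which runs the opposite reaction and makes glutamine from ammonia, averaged 556 ± 111 FPKM with L-ala and 370 ± 49.4 FPKM with vehicle (log2 fold change 0.57, limma adjusted p = 0.0126). The proton exchanger Slc9a3 averaged 7.9 ± 2.52 FPKM with L-ala and 13.3 ± 2.13 FPKM with vehicle (-0.71, adjusted p = 0.0263). Mdh1, the cytosolic malate dehydrogenase, averaged 1400 ± 145 FPKM with L-ala and 1200 ± 65.4 FPKM with vehicle (0.22, adjusted p = 0.0446). D-ala against L-ala gave 0 higher and 1 lower, and the lower gene was Glul, at 381 ± 36.5 FPKM with D-ala and 556 ± 111 FPKM with L-ala (-0.53, adjusted p = 0.0136), while 4 genes were higher and 2 lower at an unadjusted p under 0.05, beside 14.4% and 16.4% of all genes. At that threshold 6 of the 14 were higher and 1 lower for L-ala against vehicle, beside 17% and 13.5%. Glul thus was highest in the group in which Slc38a3 was lowest. For D-ala against vehicle, where Slc38a3 was higher, Glul did not pass (381 ± 36.5 against 370 ± 49.4 FPKM, 0.05, limma adjusted p = 0.856). The medians of the list were 0.07, 0.09 and 0.04 in the 3 comparisons. In the same order 21.4%, 21.4% and 7.14% of the 14 were called, beside 11.5%, 11% and 13.7% of all genes.

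Other carriers of neutral amino acids were described from a list of 24, of which 18 were tested. D-ala against vehicle gave 4 higher and 0 lower, L-ala against vehicle 2 higher and 2 lower, and between D-ala and L-ala 2 were higher and 0 lower with D-ala, with medians of -0.02, -0.08 and 0.07. At an unadjusted p under 0.05, 0 were lower with D-ala against vehicle or L-ala. Slc3a2, the heavy chain that pairs with several exchangers, averaged 161 ± 20.6 FPKM with D-ala and 102 ± 22.6 FPKM with vehicle (log2 fold change 0.67, limma adjusted p = 0.00244). Slc7a8, a light chain of the basolateral membrane, was higher with both treatments, at 45.8 ± 4.56 FPKM with D-ala, 45 ± 1.17 FPKM with L-ala and 34.1 ± 6.05 FPKM with vehicle (0.43 and 0.41, adjusted p = 0.00976 and 0.0195). Slc16a10, a carrier of aromatic amino acids, averaged 15.3 ± 0.997 FPKM with L-ala and 12.2 ± 1.95 FPKM with vehicle (0.31, adjusted p = 0.0438). Slc36a1, a proton-coupled carrier of small amino acids, averaged 16.1 ± 1.6 FPKM with D-ala and 13 ± 0.889 FPKM with L-ala (0.28, adjusted p = 0.0175).

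A pair of alanine, serine and cysteine exchangers of this list are close in cargo to system A. Slc1a5 averaged 19.5 ± 1.16 FPKM with D-ala, 14.7 ± 1.51 FPKM with L-ala and 15.8 ± 1.61 FPKM with vehicle, and was higher with D-ala than with vehicle (log2 fold change 0.29, limma adjusted p = 0.0208) and than with L-ala (0.39, adjusted p = 0.00538). Its relative Slc1a4 averaged 5.28 ± 0.906 FPKM with L-ala and 7.44 ± 1.27 FPKM with vehicle, a log2 fold change of -0.43 (adjusted p = 0.0456). Slc1a5 thus shared with Slc38a3 a higher level with D-ala than in either other group.

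The Slc38a2 protein is known from cultured cells to leave the membrane after ubiquitin is attached, and 9 ligases and kinases of that step were all tested. Against vehicle, 2 were higher and 0 lower with D-ala, and 2 were higher and 0 lower with L-ala, with medians of 0.12 and -0.02. At an unadjusted p under 0.05, 4 were higher and 0 lower with D-ala, and 3 higher and 1 lower with L-ala. In each comparison 22.2% of the 9 were called, beside 11.5% and 11% of all genes. Nedd4l, a ubiquitin ligase of membrane transporters, averaged 17.3 ± 1.48 FPKM with D-ala, 12.9 ± 0.494 FPKM with L-ala and 13.9 ± 1.04 FPKM with vehicle, and was higher with D-ala than with vehicle (log2 fold change 0.29, limma adjusted p = 0.00821) and than with L-ala (0.39, adjusted p = 0.00182). Sgk1, a kinase that restrains Nedd4l, averaged 42 ± 4.48 FPKM with D-ala, 42 ± 5.68 FPKM with L-ala and 33.9 ± 1.93 FPKM with vehicle (0.29 in both comparisons, adjusted p = 0.0399 and 0.0438). Wwp2, a ligase related to Nedd4l, averaged 17.7 ± 0.754 FPKM with L-ala and 15.3 ± 0.724 FPKM with vehicle (0.20, adjusted p = 0.0228).

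The amino acid sensing machinery at the lysosome, in which Slc38a9 acts, was described from 35 listed genes, of which 29 were tested. D-ala against vehicle gave 1 higher and 1 lower, L-ala against vehicle 1 higher and 3 lower, and between D-ala and L-ala 4 were higher and 0 lower with D-ala, with medians of 0.01, -0.02 and 0.01. At an unadjusted p under 0.05, 7 were higher and 4 lower with D-ala than with L-ala. Against vehicle 3 were higher and 5 lower with D-ala, and 1 higher and 7 lower with L-ala, at that threshold. Fnip1, a partner of the folliculin protein, averaged 8.14 ± 0.361 FPKM with D-ala and 9.88 ± 0.451 FPKM with vehicle (log2 fold change -0.25, limma adjusted p = 0.0105). It was also lower with L-ala, at 8.11 ± 0.635 FPKM (-0.26 against vehicle, limma adjusted p = 0.0155). Nprl3, a subunit of a complex that inhibits the Rag proteins, averaged 10.5 ± 0.37 FPKM with D-ala and 9.0 ± 0.536 FPKM with vehicle (0.20, adjusted p = 0.0332). Flcn, the folliculin gene, whose product acts on the RagC and RagD proteins, averaged 11.7 ± 1.06 FPKM with L-ala and 15.7 ± 1.13 FPKM with vehicle (log2 fold change -0.39, limma adjusted p = 0.00638). Tsc1, which encodes a subunit of the complex that holds mTORC1 in check, averaged 3.94 ± 0.286 FPKM with L-ala and 5.26 ± 0.439 FPKM with vehicle (-0.34, adjusted p = 0.00974), and 4.78 ± 0.349 FPKM with D-ala (0.22 against L-ala, adjusted p = 0.0384). Lamtor2, which encodes a subunit of the Rag anchor on the lysosome, averaged 307 ± 20.3 FPKM with L-ala and 248 ± 15.9 FPKM with vehicle (0.31, adjusted p = 0.0102). Mtor, the kinase itself, averaged 32.8 ± 3.4 FPKM with D-ala and 24.3 ± 3.29 FPKM with L-ala (0.42, adjusted p = 0.00901). These shares of called genes, 2 of 29, 4 of 29 and 4 of 29, stood beside 11.5%, 11% and 13.7% of all genes.

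Genes whose values ran most like those of Slc38a2 and Slc38a3 were sought among the other genes tested. Gene models with Gm or Rik symbols were left out. Likeness was measured by the root mean square difference of centred log2(FPKM + 1) values over the 15 libraries. Since the same values chose the genes, their changes are a description. For Slc38a2, whose own values had a root mean square of 0.413, the closest was Mier1, which encodes a transcriptional repressor that binds histone deacetylases, at a difference of 0.194. Mier1 averaged 6.37 ± 0.595 FPKM with D-ala, 7.37 ± 0.416 FPKM with L-ala and 10.9 ± 0.754 FPKM with vehicle. Rtp4, Rhebl1, Pcf11 and Trim21 followed at 0.209, 0.211, 0.222 and 0.223, and all 5 genes were lower with each treatment than with vehicle, by log2 values between -0.81 and -0.43.

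For Slc38a3, whose own root mean square was 0.398, the closest was the laminin chain gene Lama5 at a difference of 0.198. Lama5 averaged 10.2 ± 0.725 FPKM with D-ala, 5.69 ± 0.432 FPKM with L-ala and 7.2 ± 0.47 FPKM with vehicle. Bach1, Tet2, Clasrp and Uroc1 followed at 0.204, 0.209, 0.216 and 0.218. All 5 had their highest mean with D-ala and their lowest with L-ala, with log2 differences between the treatments of 0.57 to 0.84. Uroc1, which encodes an enzyme of histidine breakdown, averaged 17.1 ± 1.37 FPKM with D-ala, 11.3 ± 2.24 FPKM with L-ala and 13.3 ± 1.97 FPKM with vehicle. The 15 libraries are shared by all of these genes, and the likeness says nothing of shared control.

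**Figure D4:**
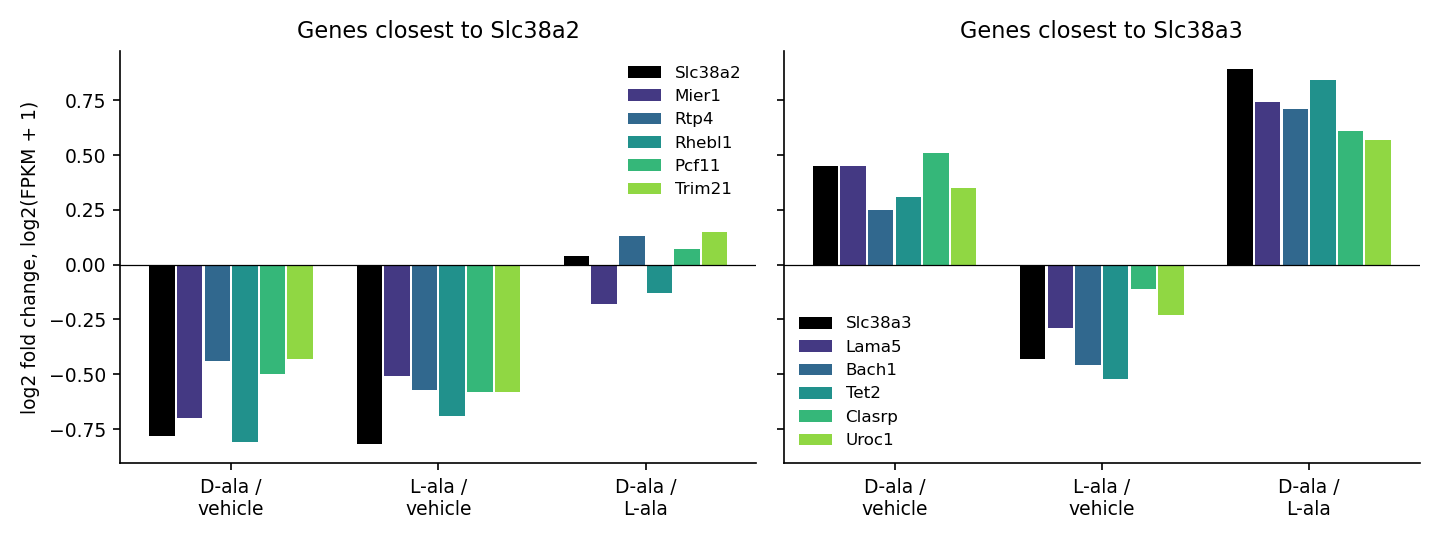
Log2 fold changes on the log2(FPKM + 1) scale (vertical axis) of Slc38a2 with its 5 closest genes (left) and of Slc38a3 with its 5 closest genes (right), for each treatment against vehicle and for D-ala over L-ala. Bars are the fitted changes, without error bars, and are a description because likeness over the same libraries chose the genes. On the left every bar against vehicle is below 0, and on the right every bar for D-ala against L-ala is above 0.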

How the data were processed

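Per the labels' protocols, a TruSeq stranded kit turned messenger RNA from TRIzol extracts into libraries. The submitters' processing notes name the mm10 build, SAMtools 0.1.19, Bowtie2 2.2.3 and TopHat2 2.0.13. The sources used here do not give the program behind the gene values, its annotation or its use of strand. The deposited table holds FPKM per the file headers, and these were tested. Its deposited log2 column, a centred log2 of the FPKM, was not used. The deposited column headed as a count was treated as a score, because the authors' whole numbers had been rescaled by 1 factor for each library, then rounded; the factors gave the depth, and no count model was fitted.

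Genes with at least 1 FPKM in 5 libraries were tested as log2(FPKM + 1) with limma 3.58.1 in R 4.3.3, in 1 model of 3 group means over 15 libraries, with trended and robust variance moderation and Benjamini-Hochberg adjustment over all 11781 genes. The procedure was tested on simulated data. Replicate numbers follow sample order. The genes described and the lists were chosen with earlier results of these data known. Asns and Shmt2 of the ATF4 list and the markers Hbb-b1 and Hbb-b2 are named as additions. Marker lists are otherwise given by counts and sums. Named from each pathway list were up to 3 called genes per comparison by smallest p. A gene that meets this rule is not reported here. Recovered reads carry counting error beside the spread between libraries. Sequences are from RefSeq; 5 of the 7 symbols matched.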

Additional observations from a re-analysis of the deposited data

Results flagged for a closer look

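Slc38a2 in vehicle replicate 4 stood at 26.1 FPKM, far from the other vehicle libraries, the nearest of which was at 18.5 FPKM. The gap was 0.755 of the group's whole range, above the critical value of 0.71 for 5 samples. It was the only such library among 21 combinations of gene and group examined, and chance gives about 1 in 20. The changes of Slc38a2 without this library were -0.67 with D-ala against vehicle and -0.71 with L-ala against vehicle on the log2 scale.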

How the results depend on the processing

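Over 11 alternatives (other pseudocount, filters, scalings, variance moderation, 2-group fits, length and GC corrections, shallow libraries left out), Slc38a2 ran from -0.84 to -0.75 with D-ala and from -0.88 to -0.75 with L-ala against vehicle, and Slc38a3 from 0.41 to 0.49 for D-ala against vehicle and from 0.80 to 0.92 for D-ala against L-ala; all kept their call, as they did with each library left out in turn (-0.84 to -0.67, -0.87 to -0.71, 0.37 to 0.52 and 0.81 to 0.95). Slc38a3 for L-ala against vehicle was -0.32 (limma adjusted p = 0.126) without the 3 libraries of lowest depth, which left 1 carrier lower, and -0.49 to -0.38 with each library left out, where 1 to 3 carriers were lower. The cause was not tested. Among the alternatives, median-of-ratios scaling could hardly move any value, since its factors ran from 1.001 to 1.005. The scaled counts were proportional to the FPKM of each gene, so they changed little beyond the weight of the pseudocount. These settings therefore do not test the scaling between libraries. Changes near 0 turned sign. For L-ala against vehicle, Slc38a7 was -0.01 with the GC trend removed and -0.05 to 0.06 with a library left out, and Slc38a9 was -0.05 without the 3 shallow libraries and -0.03 to 0.04 with a library left out. For D-ala against L-ala with the length trend removed, Slc38a2 was -0.02, Slc38a9 -0.08 and Slc38a10 -0.02; Slc38a9 was -0.02 with quantile normalization, and Slc38a2 ran from -0.01 to 0.08 with a library left out.

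Counts over all genes moved more. For L-ala against vehicle, 763 higher and 534 lower became 234 and 341 with quantile normalization, 330 and 273 with the 2 groups alone, and 400 and 350 with the length trend removed; 321 were lower with the 5 FPKM filter. For D-ala against L-ala, 785 lower became 411 with the 2 groups alone. Quantile normalization gave 740 higher and 836 lower for D-ala against vehicle, where 769 and 580 were called. With a library left out, higher and lower calls ran from 502 to 888 and 310 to 704 (D-ala against vehicle), 174 to 1529 and 147 to 1051 (L-ala against vehicle) and 467 to 1261 and 303 to 1500 (D-ala against L-ala). The lowest of these came without vehicle replicate 4 in both comparisons with vehicle and without L-ala replicate 4 between the treatments, and the highest in all 3 comparisons without L-ala replicate 5. No paired analysis was possible because the labels give no replicate numbers. Slc38a1 and Slc38a4 rest on few reads.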
